A study of Mus musculus with 35 samples.

Results

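The nuclear-encoded subunits of the mitochondrial respiratory chain were followed across a styrene dose series in mouse lung. Styrene is an industrial solvent vapour that lung enzymes oxidise. Members were taken by gene symbol: every gene whose symbol begins with Nduf, Uqcr, Atp5, Cox4, Cox5, Cox6, Cox7 or Cox8, together with Sdha, Sdhb, Sdhc, Sdhd and Cyc1. Assembly factors whose symbols begin with Ndufaf were left out. The rule found 81 of the 17097 genes on the array. Complexes were assigned by symbol alone, with 35 members counted in complex I, 4 in II, 8 in III, 17 in IV and 17 in V. Ndufa4, Ndufa4l2 and Ndufs5-ps are thus counted in complex I. Each gene was read from its brightest probe set that names 1 gene, and 39 members had more than 1 such probe set. One member, Ndufs5-ps, is named as a pseudogene of a complex I gene, and its probes may read its near-identical parent.

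Whole lung was taken from adult male C57Bl/6 wild-type mice, bought from Taconic, after a single inhalation lasting 6 h. The groups breathed 0 (air only), 1, 5, 10, 20, 40 or 120 ppm styrene, with 5 mice and 5 arrays each, 35 arrays in all. Mice were killed on the morning after exposure, so each value is 1 time point. All groups share the strain, sex, genotype and housing. Whole lung mixes many cell types, and a lower signal from fewer cells of a type and from less RNA per cell cannot be told apart.

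The respiratory chain passes electrons from nutrients to oxygen. Complex I (NADH dehydrogenase, the Nduf genes) and complex II (succinate dehydrogenase, the Sdh genes) feed electrons to coenzyme Q. Complex III (the cytochrome bc1 complex, the Uqcr genes and Cyc1) hands them to cytochrome c, and complex IV (cytochrome c oxidase, the Cox genes) to oxygen. Complex V (ATP synthase, the Atp5 genes) uses the resulting proton gradient to make ATP. Some subunits come in tissue isoforms: Cox6a2, Cox7a1 and Cox8b are those of heart and skeletal muscle, and Cox4i2 is found in lung.

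Values are log2 signals from Affymetrix arrays, normalised by the submitters. Signal of 73 of the 81 members was above the array's highest nonspecific-hybridisation control on all 35 arrays. The exceptions were Cox7b2 (below it on 35 arrays), Cox8c (34), Cox4i2 (32), Cox7a1 (25), Sdhd (12), Ndufs1 (4), Ndufs4 (4) and Cox8b (1). Cox6a1, Atp5h and Cox4i1 averaged above 12, where a probe set may saturate. Alveolar type 2 cell markers, which define lung, averaged from 11.79 to 11.90 in the 7 groups. The 120 ppm arrays stood apart: their poly-A spike-in controls averaged 7.70 ± 0.33 and those of the 0 ppm arrays 6.18 ± 0.10 (SD, n = 5 each; two-sided exact permutation test, p = 0.00794, the smallest that 5 against 5 can give; adjusted p = 0.0286 over 18 tests). The mean nonspecific control was also higher on the 120 ppm arrays, 3.69 ± 0.08 against 3.29 ± 0.02 on 0 ppm arrays, and the upper quartile of all signals was lower, 6.52 ± 0.16 against 6.96 ± 0.01 (both p = 0.00794 and adjusted p = 0.0286 by the same exact test). The same p and adjusted p by the exact test were found for the poly-A controls at 20 ppm, 5.95 ± 0.07 against 6.18 ± 0.10 at 0 ppm, and for the upper quartile at 40 ppm, 6.93 ± 0.01 against 6.96 ± 0.01 at 0 ppm (SD, n = 5 each). The part of the upper quartile in the members' differences at 40 ppm was not tested. Liver markers averaged above log2 7 on 4 arrays: 8.41 on 20 ppm replicate 2, 9.43 on 1 ppm replicate 2, and 8.91 and 7.75 on 0 ppm replicates 3 and 4. Without these arrays 38 members were higher (46.9%, beside 37.8% of all genes) and 28 lower (34.6%, beside 30.4%) at 120 ppm. Counts at 10, 20 and 40 ppm are given below.

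At 1 and 5 ppm no member was called, where a call is an adjusted p below 0.05 from limma's moderated test with Benjamini-Hochberg adjustment over all 17097 genes. The share of all genes called was 0% at 1 ppm and 1.16% at 5 ppm (1.13% higher and 0.0234% lower). At an unadjusted p below 0.05, 12 members passed at 1 ppm (14.8%, beside 6.96% of all genes) and 2 at 5 ppm (2.47%, beside 6.45%). The smallest p at 1 ppm belonged to Sdhc, a membrane anchor of complex II, at 9.64, 9.61, 9.95, 9.66 and 9.76 in 1 ppm lungs against 9.58, 9.52, 9.51, 9.41 and 9.31 in 0 ppm lungs (log2 difference 0.26 ± 0.08 SE, limma adjusted p = 0.447). At 5 ppm it was Uqcrq, a small subunit of complex III, with a log2 difference of 0.19 ± 0.07 SE (limma adjusted p = 0.489).

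At 10 ppm 14 of the 81 members were called against 0 ppm, 17.3% beside 11.8% of all genes. Of these, 4 were higher (4.94% of members, 5.17% of all genes) and 10 were lower (12.3% of members, 6.62% of all genes). At 20 ppm 9 members were called (11.1%, beside 13.2% of all genes), 4 higher (all genes 6.45%) and 5 lower (all genes 6.74%). At 40 ppm 10 were called (12.3%, beside 12.7% of all genes), 6 higher (all genes 7.69%) and 4 lower (all genes 5.04%). The median difference of members was -0.08 at 10 ppm (all genes -0.02). It was -0.02 at 20 ppm (all genes -0.02) and 0.01 at 40 ppm (all genes 0.01). In the plot of shares by dose the members therefore stood near the background, except for lower calls at 10 ppm. That background counts dim genes too. With genes below the median signal of all genes left out, 1069 genes and 13 members were lower at 10 ppm, against 1132 genes and 10 members with every gene in. The 1069 come from far fewer genes than the 1132, so the share of genes lower in that setting was above 6.62%. The part of signal level in the excess of lower calls at 10 ppm was not tested. When each array was centred on its own median, 3 members were called higher (3.7%, beside 5.36% of all genes) and 3 lower (3.7%, beside 5.1%) at 10 ppm. The same setting gave 1 higher (1.23%, beside 5.85% of all genes) and 2 lower (2.47%, beside 6.61%) at 20 ppm, and 3 higher (3.7%, beside 6.58%) and 2 lower (2.47%, beside 5.13%) at 40 ppm. With the poly-A level as a covariate, 4 were higher (4.94%, beside 7.46% of all genes) and 3 lower (3.7%, beside 7.15%) at 20 ppm. Without the 4 arrays rich in liver markers the calls were 2 higher and 5 lower at 10 ppm (all genes 3.67% and 4.53%), 2 and 2 at 20 ppm (all genes 3.96% and 3.8%), and 3 and 2 at 40 ppm (all genes 4.7% and 2.61%).

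**Figure D1:**
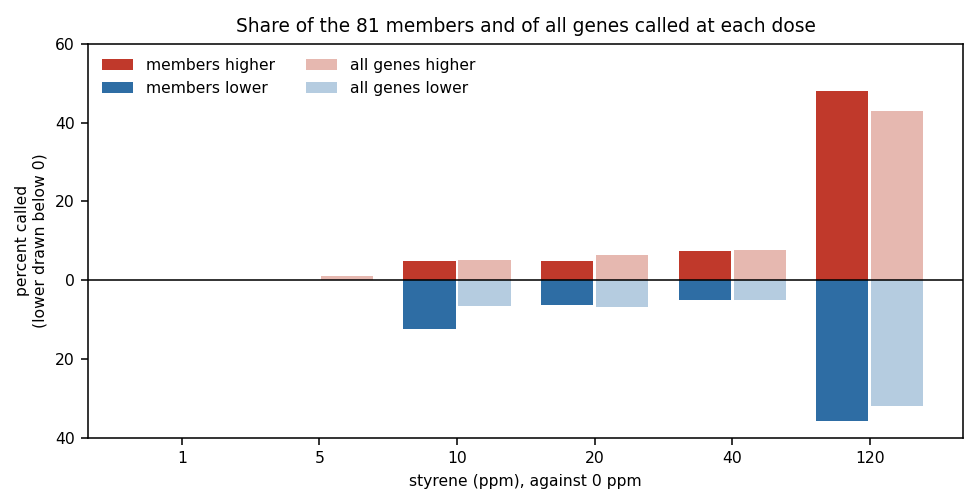
Percent of the 81 members (dark bars) and of all 17097 genes (pale bars) called higher (drawn above 0) or lower (drawn below 0) than at 0 ppm, by styrene dose in ppm. The pairs of bars are of similar height except for lower calls at 10 ppm (12.3% of members, 6.62% of all genes), from no member at 1 and 5 ppm to 48.1% of members higher and 35.8% lower at 120 ppm.

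At all of 10, 20 and 40 ppm 4 members were called. Uqcrc1, Cyc1 and Atp5g1 were higher (3.7% of members, beside 3.19% of all genes) and Cox7a2l was lower (1.23%, beside 2.25%) at each dose. The comparisons share the same 5 air-only lungs, so the calls at the 3 doses are not independent.

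Uqcrc1 is a core protein of complex III. Its log2 signals were 9.80, 9.58, 9.59, 9.37 and 9.43 at 0 ppm, 9.91, 9.77, 9.96, 9.88 and 9.92 at 10 ppm, 9.96, 9.81, 9.79, 9.82 and 9.92 at 20 ppm, 9.84, 9.86, 10.15, 10.21 and 9.93 at 40 ppm, and 11.24, 11.37, 11.19, 11.40 and 11.04 at 120 ppm. The highest air-only lung reached into the range of the 10 and 20 ppm lungs, lay just below the 40 ppm lungs, and was far below every 120 ppm lung. From low to high dose, the log2 differences from 0 ppm were 0.33, 0.31, 0.44 and 1.69, each ± 0.09 SE (limma adjusted p = 0.015, 0.0258, 0.00126 and 2.31e-16). Without the 4 arrays rich in liver markers the difference was 0.28 at 10 ppm (adjusted p = 0.109) and 0.27 at 20 ppm (adjusted p = 0.161).

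Cyc1 is cytochrome c1, the haem protein of complex III that passes electrons to cytochrome c. It read 10.30, 10.20, 10.35, 10.06 and 10.07 at 0 ppm, 10.45, 10.46, 10.60, 10.52 and 10.61 at 10 ppm, 10.51, 10.49, 10.50, 10.46 and 10.59 at 20 ppm, 10.39, 10.50, 10.62, 10.81 and 10.57 at 40 ppm, and 11.69, 11.69, 11.60, 11.71 and 11.48 at 120 ppm. All lungs at 10, 20, 40 and 120 ppm lay above all air-only lungs. The log2 differences were 0.33, 0.32, 0.38 and 1.44, each ± 0.09 SE (limma adjusted p = 0.00942, 0.0128, 0.00253 and 1.6e-15). Uqcrq, also of complex III, was called higher at 40 ppm (0.28 ± 0.07 SE, adjusted p = 0.00919) and at 120 ppm. Its 40 ppm call was lost when the gene's 4 probe sets were averaged, with arrays centred on their median, and without the arrays rich in liver markers. Uqcr10, another small subunit of the same complex, was lower at 10 ppm (-0.29 ± 0.08 SE, adjusted p = 0.0193) and 20 ppm (-0.25 ± 0.08 SE, adjusted p = 0.0473).

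Atp5g1 is 1 of 3 genes that encode the same membrane c subunit of ATP synthase. Its signals were 9.41, 9.44, 9.42, 9.16 and 9.08 at 0 ppm, 9.71, 9.55, 9.90, 9.71 and 9.70 at 10 ppm, 9.75, 9.67, 9.63, 9.72 and 9.77 at 20 ppm, 9.77, 9.75, 9.88, 9.68 and 9.53 at 40 ppm, and 10.22, 10.25, 10.33, 10.26 and 10.10 at 120 ppm. No lung at 10 ppm or above overlapped the air-only lungs. From low to high dose, the log2 differences were 0.41, 0.41, 0.42 and 0.93, each ± 0.09 SE (limma adjusted p = 0.0018, 0.00182, 0.00139 and 5.7e-11). When a gene's probe sets were averaged, which brings in a dim second set with a mean of 3.01, the 20 ppm difference of Atp5g1 was 0.16 (adjusted p = 0.123). The other c subunit genes, Atp5g2 and Atp5g3, were called at none of 10, 20 and 40 ppm. At 120 ppm Atp5g2 rose (0.84 ± 0.08 SE) and Atp5g3 fell (-0.32 ± 0.06 SE).

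Cox7a2l is a complex IV related protein that joins complexes III and IV into supercomplexes, and C57BL/6 mice are known to carry a shortened form of it. Among called members it had the largest decrease at 10, 20 and 40 ppm. Signals were 10.77, 10.55, 10.52, 10.35 and 10.39 at 0 ppm, 9.68, 9.53, 9.78, 9.69 and 9.54 at 10 ppm, 9.98, 9.61, 9.62, 9.75 and 9.56 at 20 ppm, 10.29, 10.03, 9.87, 9.74 and 10.03 at 40 ppm, and 9.90, 9.83, 9.89, 9.19 and 9.78 at 120 ppm. Every lung at these 4 doses lay below every air-only lung. Expressed as folds, the signal was 1.83, 1.76, 1.44 and 1.74 times lower, from low to high dose (log2 differences -0.87, -0.81, -0.53 and -0.80, each ± 0.12 SE; limma adjusted p = 1.6e-06, 5.86e-06, 0.00188 and 2.76e-07). All 3 probe sets of the gene fell at 10 ppm, by 0.78, 0.91 and 0.87 on the log2 scale. The gene was also lower at 10 ppm than at 5 ppm (-0.66 ± 0.12 SE, adjusted p = 0.000553), where 5 members fell and none rose (6.17% of members, beside 4.64% of all genes, with 1.5% of genes higher and 3.14% lower).

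**Figure D2:**
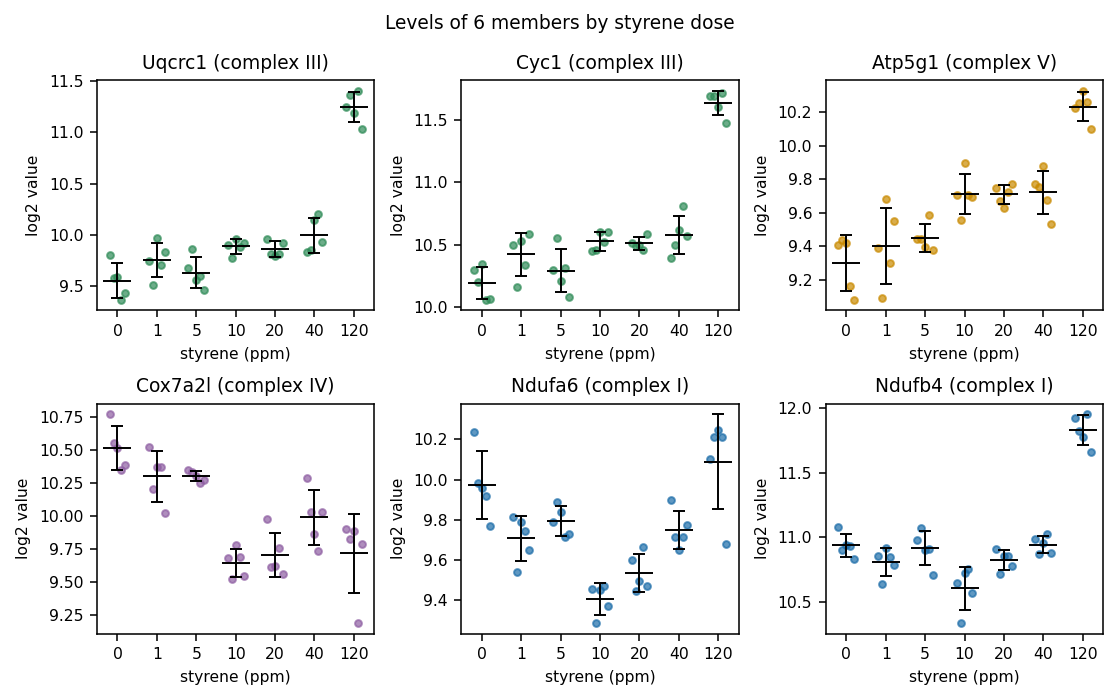
Log2 signal of 6 members on each of the 35 arrays (points) against styrene dose in ppm, with the group mean and SD (black bars, n = 5). Uqcrc1, Cyc1 and Atp5g1 lie higher from 10 ppm upward, Cox7a2l lies lower, and Ndufa6 and Ndufb4 are lowest at 10 ppm.

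Upstream promoter sequence is shown for the members called at all of 10, 20 and 40 ppm that have an entry in the RefSeq promoter table (Uqcrc1, Atp5g1 and Cox7a2l) and for Sdha and Sdhb, which moved in opposite directions at 120 ppm. Each run is the 250 bases before the transcription start, 5′ to 3′ on the gene's strand, in GRCm38.p6 coordinates: Uqcrc1 chr9:108936398-108936647 (plus strand), Atp5g1 chr11:96075632-96075881 (minus), Cox7a2l chr17:83514334-83514583 (minus), Sdha chr13:74350241-74350490 (minus) and Sdhb chr4:140961021-140961270 (plus). Capitals mark matches to the motifs searched on both strands: the NRF1 palindrome for nuclear respiratory factor 1 (its letters are the capitals in Sdha, with any base at the sixth place), CCGGAAG for GABP, AAGATGGC for YY1 and AAGGTCA for ERR-alpha, all known regulators of respiratory genes. The GABP motif ends in the AAG that opens those of YY1 and ERR-alpha, so such matches can share bases.
Uqcrc1: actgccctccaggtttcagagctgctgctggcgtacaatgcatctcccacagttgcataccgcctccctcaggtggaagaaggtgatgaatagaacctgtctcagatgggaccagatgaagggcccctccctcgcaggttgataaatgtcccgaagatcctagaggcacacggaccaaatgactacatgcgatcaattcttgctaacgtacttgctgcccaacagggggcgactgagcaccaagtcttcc
Atp5g1: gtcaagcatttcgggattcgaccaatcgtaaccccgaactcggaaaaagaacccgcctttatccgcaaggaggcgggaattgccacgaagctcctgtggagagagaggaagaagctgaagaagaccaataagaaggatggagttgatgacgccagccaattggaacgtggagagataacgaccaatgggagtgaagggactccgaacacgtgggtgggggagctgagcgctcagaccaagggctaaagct
Cox7a2l: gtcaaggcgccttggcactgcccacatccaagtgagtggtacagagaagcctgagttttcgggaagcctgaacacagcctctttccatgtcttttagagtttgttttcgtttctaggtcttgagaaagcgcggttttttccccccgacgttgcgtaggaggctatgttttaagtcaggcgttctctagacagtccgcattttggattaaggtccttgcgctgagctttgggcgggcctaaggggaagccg
Sdha: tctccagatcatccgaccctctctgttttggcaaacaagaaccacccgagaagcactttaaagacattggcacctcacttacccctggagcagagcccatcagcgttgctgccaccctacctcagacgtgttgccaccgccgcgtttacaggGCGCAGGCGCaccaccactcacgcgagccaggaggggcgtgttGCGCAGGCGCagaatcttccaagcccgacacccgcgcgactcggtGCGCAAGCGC
Sdhb: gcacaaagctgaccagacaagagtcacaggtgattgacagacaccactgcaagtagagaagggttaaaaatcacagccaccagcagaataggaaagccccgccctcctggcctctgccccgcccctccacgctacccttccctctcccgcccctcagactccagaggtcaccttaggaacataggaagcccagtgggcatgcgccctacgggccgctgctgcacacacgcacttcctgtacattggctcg
Uqcrc1 site after the start: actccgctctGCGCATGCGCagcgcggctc
Sdhb site after the start: ctcggagaaaCCGGAAGcggccttcca

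None of the motifs was found in the upstream 250 bases of Uqcrc1, Atp5g1, Cox7a2l or Sdhb. Uqcrc1 has NRF1 matches that begin at bases 6 and 31 of the transcript (the start is base 1), and the second of these is shown. Sdhb has a GABP match from base 7 of the transcript. Sdha holds 3 NRF1 matches, which begin 98, 55 and 10 bases before the start. Of the 81 members, 64 had an entry in the table, whose windows reach 50 bases past the start. The NRF1 motif was found in 15 of these 64 windows (23.4%, beside 7.73% of 13605 genes of the array with a window), GABP in 14 (21.9%, beside 13.8%), YY1 in 9 (14.1%, beside 3.73%) and ERR-alpha in 7 (10.9%, beside 3.87%). Matches occurred in members of both directions at 120 ppm: NRF1 in 7 of 30 higher and 6 of 23 lower members with a window, GABP in 8 of 30 and 4 of 23, YY1 in 6 of 30 and 3 of 23, and ERR-alpha in 3 of 30 and 3 of 23. A match is a run of letters and was not tested as a binding site.

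Complex I gave most of the lower calls at 10 ppm, where 7 of its 35 genes fell and none rose. The 3 with the largest changes were accessory subunits. Ndufa6 read 9.46, 9.29, 9.45, 9.47 and 9.37 in 10 ppm lungs against 10.24, 9.98, 9.96, 9.92 and 9.77 in 0 ppm lungs (-0.57 ± 0.09 SE, limma adjusted p = 2.56e-05). Ndufb4 read 10.64, 10.33, 10.72, 10.75 and 10.57 in 10 ppm lungs against 11.08, 10.91, 10.94, 10.93 and 10.83 in 0 ppm lungs (-0.33 ± 0.08 SE, adjusted p = 0.00381). Ndufc2 read 10.62, 10.42, 10.70, 10.71 and 10.57 in 10 ppm lungs against 10.91, 10.98, 10.92, 10.92 and 10.81 in 0 ppm lungs (-0.31 ± 0.07 SE, adjusted p = 0.00378). For all 3 genes every 10 ppm lung lay below every air-only lung. With arrays centred on their median 3 members in all stayed lower at 10 ppm: Cox7a2l and, of complex I, Ndufa6 and Ndufb4. Ndufc2 lost its call in that setting. Ndufb3, Ndufa7, Ndufb11 and Ndufa3 fell by 0.26, 0.26, 0.21 and 0.19 on the log2 scale. Over the members as a whole, 14 showed no overlap between the 10 ppm and air-only lungs, 3 above and 11 below, beside 13.7% of all genes. At 20 ppm 5 lay above and 7 below (15.8% of all genes did not overlap), and at 40 ppm 6 above and 3 below (13.1% of all genes).

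The lower complex I signals at 10 ppm were not all present at 40 ppm. Between 40 and 10 ppm 4 members were called, all higher and all of complex I (4.94% of members, beside 5.88% of all genes, with 4.25% of genes higher and 1.64% lower). Ndufa6 read 9.90, 9.71, 9.65, 9.72 and 9.78 in 40 ppm lungs, every one above the 10 ppm lungs (log2 difference 0.34 ± 0.09 SE, limma adjusted p = 0.0171). Ndufb4 differed by 0.34 ± 0.08 SE (adjusted p = 0.00767), Ndufa7 by 0.28 ± 0.07 SE (adjusted p = 0.0161) and Ndufc2 by 0.25 ± 0.07 SE (adjusted p = 0.0348). Under median centring of the arrays 0 members were called in this comparison (all genes 2.16% higher and 1.89% lower), and without 10 ppm replicate 2 only 1 was (all genes 2.05% higher and 0.778% lower). At 40 ppm against 0 ppm the called complex I members were Ndufb3 (-0.30 ± 0.08 SE, adjusted p = 0.00551) and Ndufa1 (-0.25 ± 0.07 SE, adjusted p = 0.0153).

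Few calls came from the remaining complexes at 10 to 40 ppm. Cox6a1, the ubiquitous isoform of a small complex IV subunit, was higher at 10 ppm (0.16 ± 0.05 SE, adjusted p = 0.0375) at a signal that may saturate. In complex V, Atp5l fell at 10 ppm (-0.20 ± 0.07 SE, adjusted p = 0.0486), Atp5pb, a stalk subunit, rose at 20 ppm (0.29 ± 0.10 SE, adjusted p = 0.0458), and at 40 ppm Atp5d rose (0.20 ± 0.07 SE, adjusted p = 0.0467) and Atp5j fell (-0.21 ± 0.07 SE, adjusted p = 0.0459). In complex II, Sdhc rose at 40 ppm (0.25 ± 0.08 SE, adjusted p = 0.0397), and Sdha, Sdhb and Sdhd were not called at 10, 20 or 40 ppm. Several adjusted p values in this group lie near the threshold, and Atp5l, Cox6a1, Atp5pb, Atp5d, Atp5j, Sdhc and, at 20 ppm, Uqcr10 each kept its call in 8 to 13 of 24 alternative analyses.

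A straight-line trend over the 30 arrays from 0 to 40 ppm, on log2(dose + 1 ppm), called 4 members upward and 9 downward (16% of members, beside 26% of all genes, 13.2% upward and 12.9% downward). The upward members were Atp5g1 (slope 0.09 ± 0.02 SE per unit, adjusted p = 2.94e-05), Uqcrc1 (0.07 ± 0.02, adjusted p = 0.000619), Cyc1 (0.06 ± 0.02, adjusted p = 0.00179) and Uqcrq (0.05 ± 0.01, adjusted p = 0.000267). The Uqcrq trend lost its call when the gene's probe sets were averaged. Among called members Cox7a2l had the steepest downward slope (-0.13 ± 0.02, adjusted p = 7.83e-05). The other 8 downward members were Ndufa6, Ndufb3, Ndufa1, Ndufv3, Ndufb11, Uqcr10, Atp5j and Atp5h. Of 46 alternative analyses, the Atp5h trend kept its call in 20, that of Uqcr10 in 40 and that of Ndufa6 in 41. Ndufa6 was lowest at 10 ppm, so a straight line does not describe its course. Without 0 ppm replicate 1 the downward count was 4 (4.94% of members, beside 11.9% of all genes). Over the same 30 arrays 7 of 8 club cell markers and 6 of 9 endothelial markers sloped downward and none upward. Their part in the members' trends was not tested.

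At 120 ppm 68 of the 81 members were called, 84% beside 74.8% of all genes. Members moved in both directions, 39 higher (48.1%, beside 42.9% of all genes) and 29 lower (35.8%, beside 31.9%). The median difference of the members was 0.19 and that of all genes 0.15. The members are bright, with a median signal of 10.60 that lies above 96.5% of all genes. With genes below the median signal of all genes left out, the all-gene median was -0.36. Of the genes kept, 3164 were higher and 4358 lower. Higher genes made up 42.1% of those called, beside 56.7% for the members. The members' median in that setting was 0.19, with 38 higher and 29 lower. The all-gene values beside the members therefore depend on the signal level of the genes counted. When arrays were centred on their median the all-gene median was 0.55, and 52 members were higher (64.2%, beside 62.3% of all genes) and 17 lower (21%, beside 23.7%). With each array's trend over signal level removed, the all-gene median was -0.02, and 49 members were higher (60.5%, beside 31.2% of all genes) and 19 lower (23.5%, beside 32.2%). The split ran through every complex: 19 higher and 14 lower of 35 in complex I, 2 and 2 of 4 in complex II, 4 and 3 of 8 in complex III, 7 and 2 of 17 in complex IV, and 7 and 8 of 17 in complex V. The 120 ppm lungs lay wholly above the air-only lungs for 33 members and wholly below for 22, beside 49.7% of all genes with no overlap.

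In complex III the paired core proteins separated. Uqcrc2 read 8.24, 8.36, 8.60, 8.78 and 9.07 in 120 ppm lungs against 10.75, 10.81, 10.78, 10.77 and 10.70 in 0 ppm lungs, a signal 4.44 times lower (log2 difference -2.15 ± 0.11 SE, limma adjusted p = 3.73e-17). Uqcrc1, its partner, was 3.23 times higher (values above). Cyc1 was 2.71 times higher and Uqcrq 2.26 times higher, at 11.50, 11.52, 11.52, 11.62 and 11.26 in 120 ppm lungs against 10.42, 10.28, 10.37, 10.24 and 10.21 in 0 ppm lungs. Uqcrfs1, the Rieske iron-sulfur protein, had a difference of 0.02 ± 0.08 SE and was not called.

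Complex II also separated. Sdha, the flavoprotein that oxidises succinate, read 7.95, 8.05, 7.92, 8.0 and 8.71 in 120 ppm lungs against 10.00, 9.97, 10.01, 9.93 and 9.99 in 0 ppm lungs (-1.85 ± 0.11 SE, adjusted p = 4.05e-16). Sdhb, the iron-sulfur protein, read 11.54, 11.57, 11.45, 11.50 and 11.40 in 120 ppm lungs against 10.77, 10.68, 10.70, 10.59 and 10.62 in 0 ppm lungs (0.82 ± 0.07 SE, adjusted p = 1.98e-12). The anchor Sdhc rose by 0.83 ± 0.08 SE (adjusted p = 6.55e-11), and each of its 120 ppm lungs lay above each air-only lung. The anchor Sdhd was called lower (adjusted p = 0.000199), but all 5 of its 120 ppm values were below the array's highest nonspecific control, so no size is given.

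In complex I the catalytic core divided as well. Ndufs1 and Ndufv2, of the NADH-oxidising arm, fell, and so did Ndufs3. Ndufv1, Ndufs7 and Ndufs8, which are also core subunits, rose. Ndufs1 read 6.08, 6.30, 6.23, 6.42 and 6.76 in 120 ppm lungs against 7.99, 8.15, 8.27, 8.33 and 8.42 in 0 ppm lungs. Because 4 of its 120 ppm arrays were below the highest nonspecific control, the signal is given as at least 2.08-fold lower (adjusted p = 2.85e-13). Ndufs4, likewise, was at least 2.06-fold lower (adjusted p = 8.5e-14). Ndufv2 was 2.09 times lower (-1.06 ± 0.10 SE, adjusted p = 5.44e-11), and Ndufs7 was 2.06 times higher (1.04 ± 0.08 SE, adjusted p = 2.45e-13). The accessory subunit Ndufa11 rose by 1.03 on the log2 scale.

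Ndufa4 and Ndufa4l2, related proteins of which the first is now placed with complex IV and the second is known as hypoxia-inducible, moved apart. Ndufa4l2 read 7.75, 7.87, 8.22, 7.32 and 7.78 in 120 ppm lungs against 6.81, 6.27, 6.46, 6.52 and 6.50 in 0 ppm lungs (1.27 ± 0.14 SE, adjusted p = 1.44e-09). Ndufa4 read 10.40, 10.45, 10.72, 10.78 and 10.45 in 120 ppm lungs against 11.58, 11.57, 11.56, 11.64 and 11.40 in 0 ppm lungs (-0.99 ± 0.08 SE, adjusted p = 9.59e-13). Neither was called at 1 to 40 ppm. Ndufa6, the most decreased complex I gene at 10 ppm, was not called at 120 ppm (0.12 ± 0.09 SE). Ndufb4, Ndufa7 and Ndufc2, lower at 10 ppm, were higher at 120 ppm by 0.89, 0.75 and 0.42 on the log2 scale.

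In complex V Atp5pb fell most, at 7.92, 8.08, 8.12, 8.47 and 8.49 in 120 ppm lungs against 9.96, 9.88, 9.99, 10.02 and 9.93 in 0 ppm lungs (-1.74 ± 0.10 SE, adjusted p = 3.83e-16). Atp5j, a coupling factor, fell by 0.81 and Atp5o, which links the stalk to the catalytic head, by 0.59 on the log2 scale. Atp5d, of the central stalk, rose most: 11.80, 11.87, 11.67, 11.73 and 11.51 in 120 ppm lungs against 10.73, 10.62, 10.68, 10.56 and 10.62 in 0 ppm lungs (1.08 ± 0.07 SE, adjusted p = 3.75e-15). The catalytic beta subunit gene Atp5b was not called (0.15 ± 0.08 SE).

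**Figure D3:**
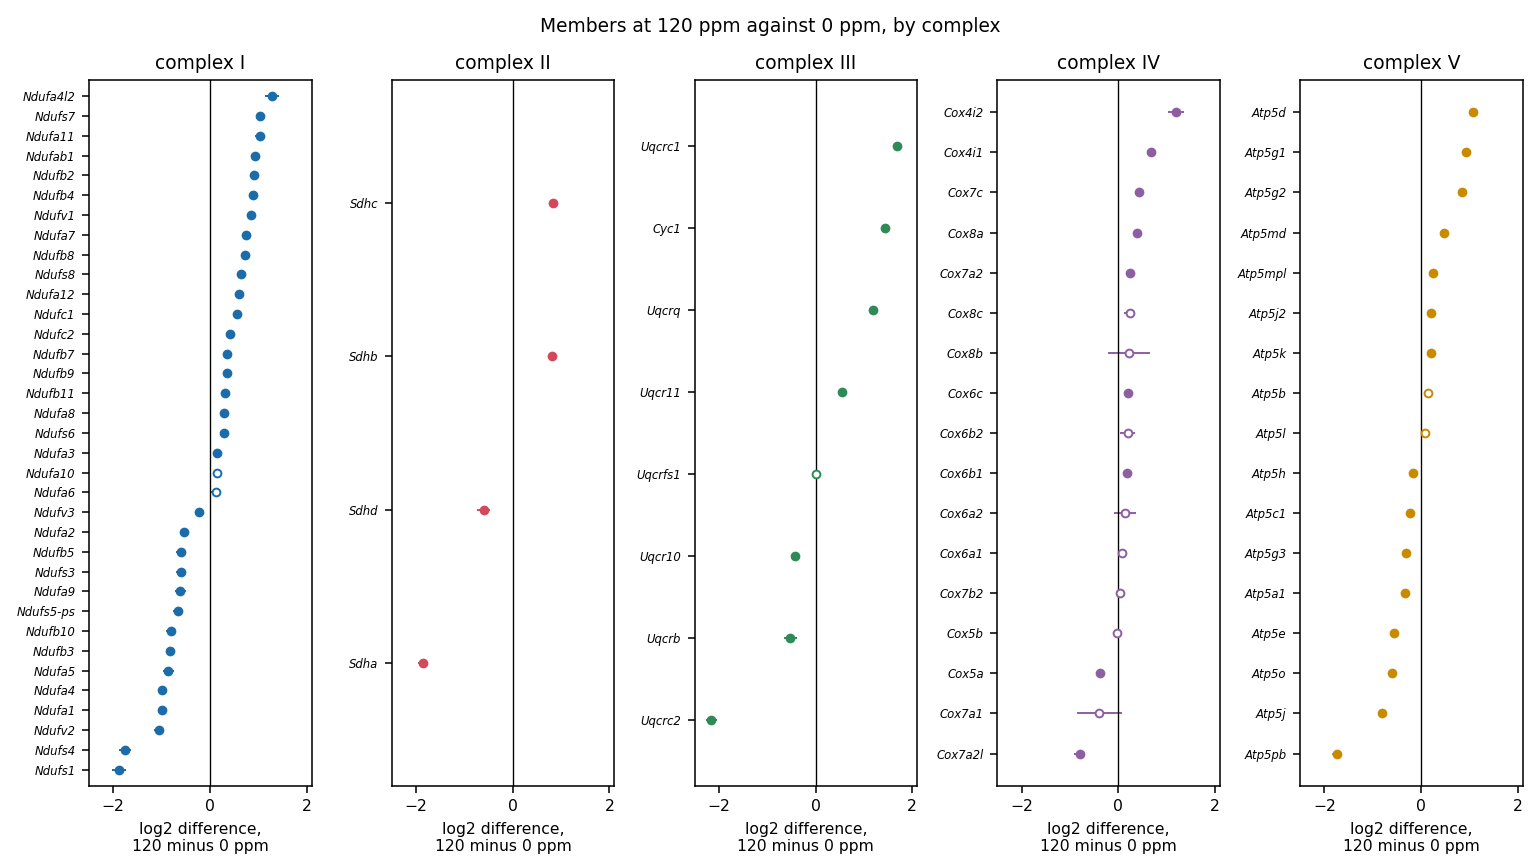
Log2 difference of each member at 120 ppm minus 0 ppm (points, bars are SE) by complex; filled points passed the test and open points did not. Every complex holds members on both sides of 0, from Uqcrc2 at -2.15 to Uqcrc1 at 1.69.

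A second probe set of the same gene, with a mean signal of at least log2 7, was available for 30 of the members called at 120 ppm. All 39 such probe sets had the sign of the brightest one, and 37 were called. At 10 ppm the 13 second probe sets of 7 called members all had the same sign, and 11 were called. The 120 ppm lungs also had lower levels of markers of other kinds: 8 of 8 club cell markers and 6 of 9 endothelial markers fell, and 2 endothelial markers rose. Beside these, 31.9% of all genes were called lower and 42.9% higher. Mean levels were also lower for alveolar macrophage markers (7.81 against 8.50 at 0 ppm) and ciliated cell markers (6.22 against 6.74). The ciliated mean lay below the highest nonspecific control on every 120 ppm array. Skeletal muscle markers averaged 4.16 against 3.86, far below that control on all arrays of both doses. The mean nonspecific control was itself 3.69 against 3.29, so no change in muscle is read from these markers. The part of these markers in the members' differences was not tested. With the poly-A level as a covariate, 9 members were higher (11.1%, beside 11.7% of all genes) and 21 lower (25.9%, beside 13%). The poly-A mean was 7.24 to 8.08 on the 120 ppm arrays and at most 6.48 on any other array. The poly-A level and the 120 ppm dose therefore cannot be told apart in that fit.

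**Figure D4:**
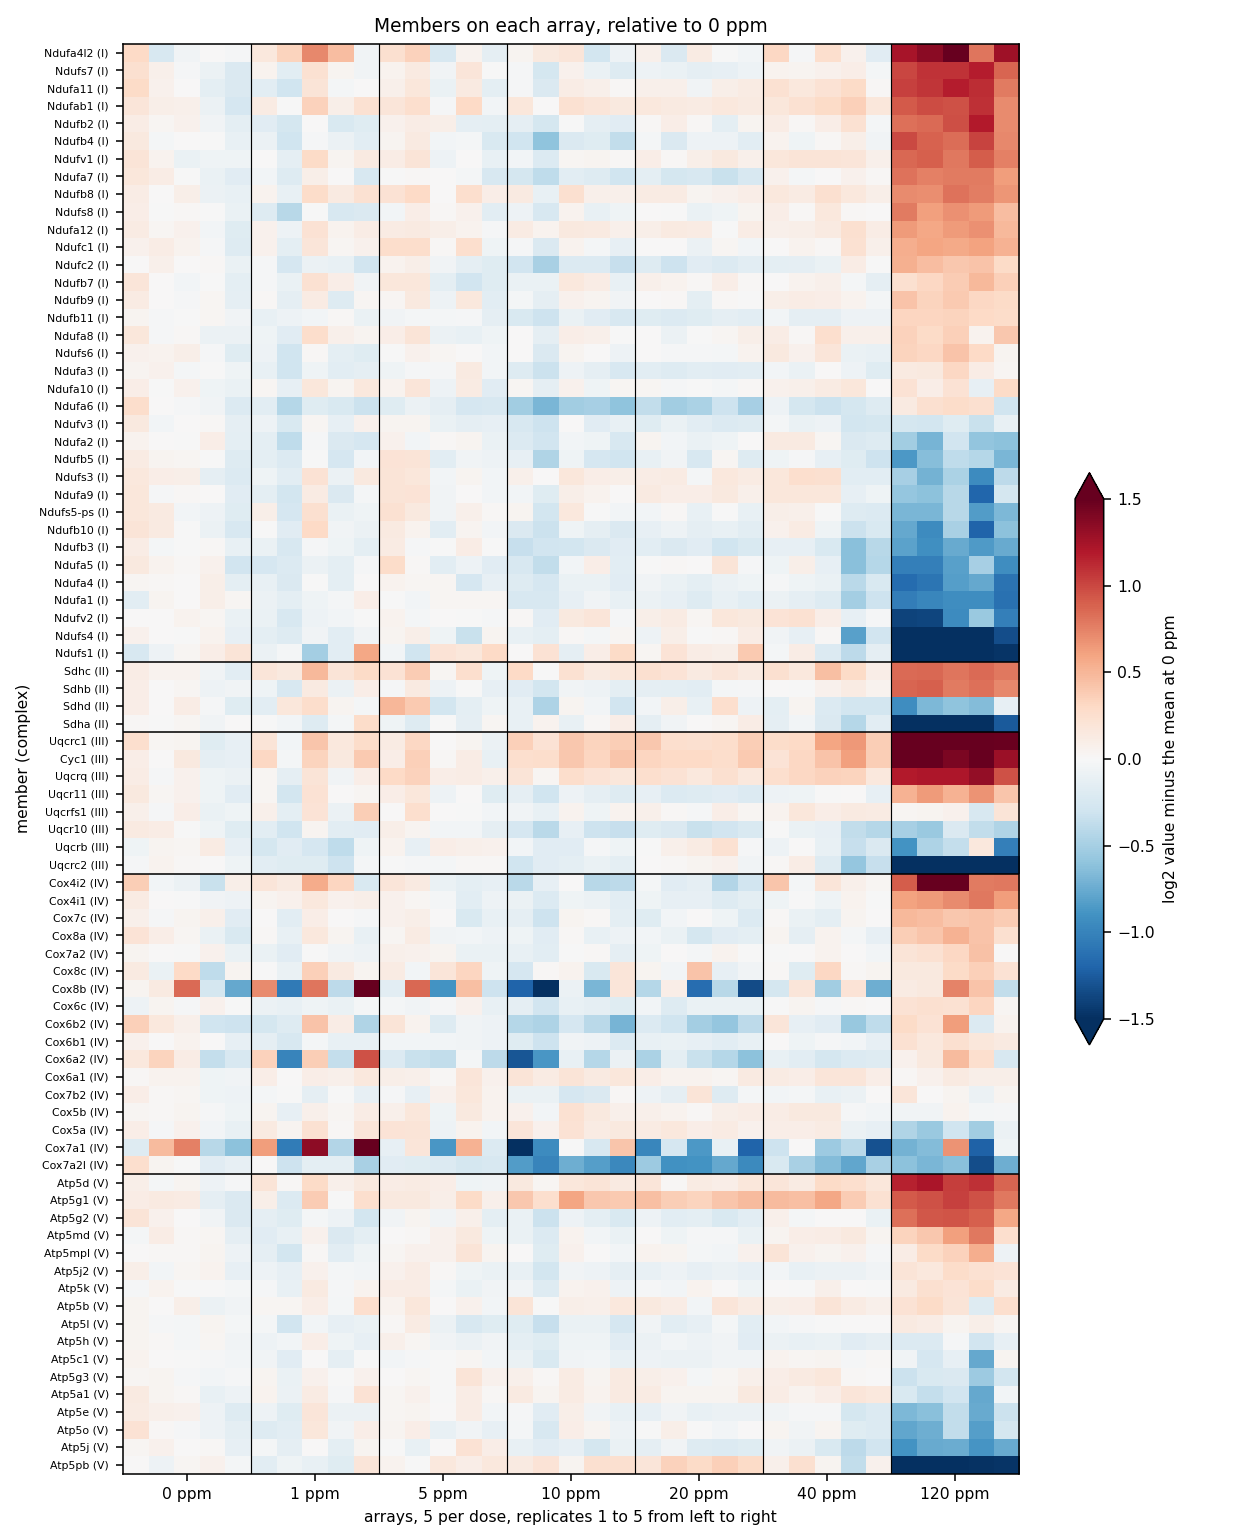
Log2 signal of the 81 members (rows, by complex in Roman numerals, ordered by their difference at 120 ppm) on the 35 arrays (columns, by dose) minus the member's mean at 0 ppm; colours are capped at 1.5 in each direction. The 120 ppm columns show red and blue rows in every complex, while Cox7a1, Cox8b and Cox6a2 vary from array to array within doses.

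The muscle isoforms of complex IV varied between lungs of the same dose. Cox7a1 read 6.63, 4.96, 7.35, 5.57 and 8.63 at 1 ppm, against 5.81, 6.48, 6.76, 5.59 and 5.39 at 0 ppm. Cox8b read 8.30, 6.52, 8.39, 7.18 and 10.05 at 1 ppm, against 7.62, 7.71, 8.43, 7.32 and 6.82 at 0 ppm. The highest lung for both, and for Cox6a2 at 9.33, was 1 ppm replicate 5. Cox7a1, Cox8b and Cox6a2 were called in no comparison against 0 ppm, nor were Cox6b2, Cox7b2 and Cox8c.

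Mouse pulmonary veins carry a sleeve of cardiac muscle, so 19 cardiac muscle markers were averaged on each array. This mean was 8.75 on 1 ppm replicate 5 and 5.04 on the lowest array, 10 ppm replicate 1. A mean of brown adipose tissue markers was also highest on 1 ppm replicate 5, at 7.97. Among 0 ppm arrays it was highest on replicate 3 (7.04), the highest of them for Cox7a1 and Cox8b, while the cardiac mean was highest on replicate 2 (6.84). On 10 ppm replicate 1, the lowest array for Cox7a1, it was 6.12, the highest at that dose. The part of brown adipose tissue in these isoforms was not tested. Over the 35 arrays Pearson's r with the cardiac mean was 0.91 for Cox7a1, 0.75 for Cox8b and 0.69 for Cox6a2 (Spearman's rho 0.86, 0.64 and 0.51). Without the 2 arrays farthest from the median r was 0.84, 0.58 and 0.54. These were the only members with r above 0.5, and the median over the 81 members was 0.02. All points come from whole-lung arrays that share the normalisation, so these values are descriptions. Of the 19 markers, 8 were above the highest nonspecific control on most arrays (Myh7, Tnnt2, Tnni3, Tnnc1, Actc1, Myl4, Myl7 and Fabp3). The other 11 were below it on most arrays, among them Myl2, the ventricular light chain, on all 35.

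**Figure D5:**
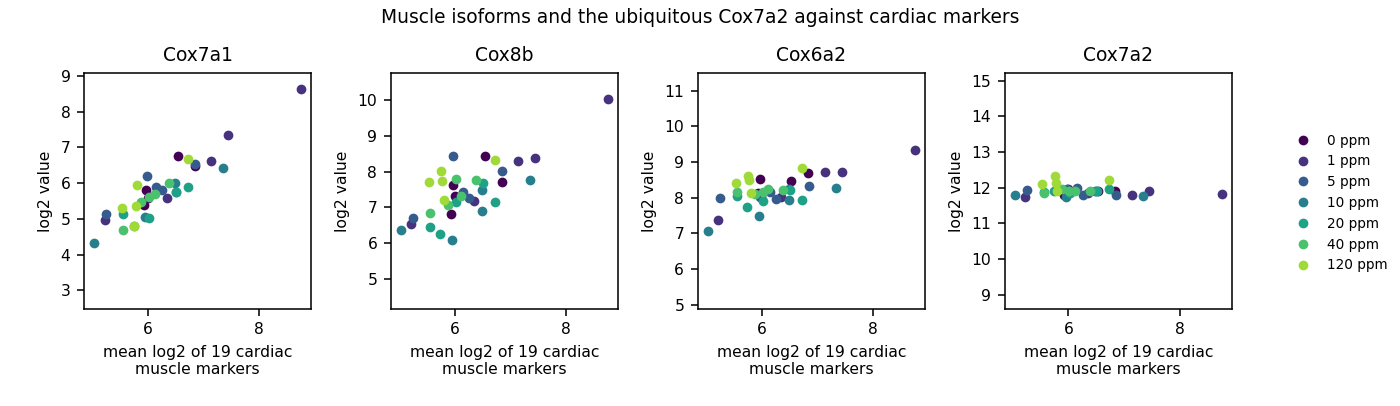
Log2 signal of Cox7a1, Cox8b, Cox6a2 and the ubiquitous isoform Cox7a2 (y axes, the same span of log2 units in each panel) against the mean log2 signal of 19 cardiac muscle markers (x axes) on 35 arrays, coloured by dose in ppm. The muscle isoforms climb with the cardiac mean and Cox7a2 does not; the point farthest right is 1 ppm replicate 5.

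The ubiquitous isoforms were steadier. Cox4i1 averaged 12.01 ± 0.08 at 0 ppm, 11.89 ± 0.06 at 10 ppm and 12.68 ± 0.07 at 120 ppm (SD, n = 5), and was called at 120 ppm alone (0.67 ± 0.06 SE, adjusted p = 4.07e-12). Cox7a2 and Cox8a were likewise called at 120 ppm alone, with differences of 0.24 ± 0.07 and 0.39 ± 0.08 SE. Cox6a1 was not called at 120 ppm (0.08 ± 0.05 SE). The lung isoform Cox4i2 read 6.43, 7.04, 7.49, 6.31 and 6.31 in 120 ppm lungs against 5.90, 5.49, 5.44, 5.20 and 5.61 in 0 ppm lungs (limma adjusted p = 1.62e-07). No fold is given, because 4 of the 120 ppm values and all 5 of the 0 ppm values were below the highest nonspecific control of their array.

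Genes that serve the chain without being subunits were counted from lists of their own. Beside these counts, 7.69% of all genes were called higher and 5.04% lower at 40 ppm, and 42.9% higher and 31.9% lower at 120 ppm. Of 42 assembly factors, 5 were higher and 2 lower at 40 ppm, and 18 were higher and 18 lower at 120 ppm. Cox18, which helps insert a complex IV subunit into the membrane, rose at 40 ppm by 0.61 ± 0.15 SE (limma adjusted p = 0.00479), with none of its 40 and 0 ppm arrays below the highest nonspecific control. The assembly factors of complex II split at 120 ppm: Sdhaf1 rose by 1.74 ± 0.11 SE (adjusted p = 7.22e-15). Sdhaf4 and Sdhaf2 were each below the highest nonspecific control on 4 of the 5 arrays at 120 ppm, so Sdhaf4 is given as at least 2.9-fold lower and Sdhaf2 as at least 2.47-fold lower than at 0 ppm (adjusted p = 1.83e-14 and 2.99e-12). Of 13 genes for cytochrome c and coenzyme Q synthesis, 1 rose and 1 fell at 40 ppm, and 6 rose and 4 fell at 120 ppm. Of 73 mitochondrial ribosomal proteins, 14 rose and 1 fell at 40 ppm, with a median difference of 0.11 beside 0.01 for all genes, and 33 rose and 30 fell at 120 ppm. Mrps18b rose most at 40 ppm (0.82 ± 0.11 SE, adjusted p = 1.89e-06).

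The tricarboxylic acid cycle supplies the chain with NADH and succinate. Of 15 genes of the cycle and of pyruvate dehydrogenase, none was called at 40 ppm (6 at an unadjusted p below 0.05 in limma). At 120 ppm 2 of them rose and 11 fell. Pdha1, of pyruvate dehydrogenase, changed by -1.99 ± 0.15 SE at 120 ppm (adjusted p = 1.08e-13). Idh3a, of the cycle's NAD-dependent isocitrate dehydrogenase, was at least 3.08-fold lower (adjusted p = 1.44e-13), with 2 of its 120 ppm arrays below the highest nonspecific control. Of 14 carriers and channels 2 rose at 40 ppm, and 3 rose and 8 fell at 120 ppm. Slc25a5, the ADP/ATP carrier, was among the lower (-1.45 ± 0.09 SE, adjusted p = 9.04e-16). Of 22 regulators of mitochondrial gene expression 1 rose and 1 fell at 40 ppm, and 5 rose and 13 fell at 120 ppm. Pprc1, a relative of PGC-1alpha, rose at 40 ppm (0.84 ± 0.15 SE, adjusted p = 0.000227). At 120 ppm Esrra, the gene of ERR-alpha, rose by 1.62 ± 0.10 SE and Polrmt, the mitochondrial RNA polymerase, by 1.52 ± 0.09 SE (adjusted p = 3.13e-15 and 1.82e-15). Tfb2m, a mitochondrial transcription factor, and Mterf4, which acts in mitochondrial ribosome assembly, were called lower at 120 ppm (adjusted p = 2.72e-11 and 7.74e-11). All 5 of their 120 ppm arrays were below the highest nonspecific control, so Tfb2m is given as at least 1.21-fold lower and Mterf4 has no size.

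Of 19 mitochondrial chaperones, proteases and import proteins, 2 rose and 1 fell at 40 ppm, and 10 rose and 8 fell at 120 ppm. Of 7 mitochondrial antioxidant enzymes 1 rose at 40 ppm, and 3 rose and 3 fell at 120 ppm, among them the peroxidase Prdx3 (-1.88 ± 0.11 SE, adjusted p = 1.52e-15). The subunits encoded by mitochondrial DNA were not analysed here. At 120 ppm the lists with the lowest medians were regulators (-0.60), cycle and pyruvate dehydrogenase genes (-0.59) and carriers (-0.49), beside 0.15 for all genes and 0.19 for the respiratory chain subunits. With genes below the median signal left out, the all-gene median was -0.36, so the distance of these lists from the background depends on the genes counted. At 120 ppm against 40 ppm, 40 members were higher and 27 lower (82.7% called, beside 70.9% of all genes, with 39.8% of genes higher and 31.1% lower).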

How the data were processed

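Labelled RNA from 35 whole lungs was read on Affymetrix arrays. The deposited values are log2 signals of 45141 probe sets, and RMA and Partek are named in the submitters' processing notes, with no versions given in the sources used here. Symbols came from the platform annotation: 28898 probe sets name 1 gene, 551 several and 15588 none, and 104 are controls. The brightest single-gene probe set stood for each of 17097 genes.

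A linear model with a mean for each dose was fitted to all 35 arrays (limma 3.58.1, functions lmFit and eBayes; R 4.3.3), which left 28 residual degrees of freedom. The Benjamini-Hochberg adjustment ran over all genes, and 0.05 was the threshold. The fit was tested on simulated data. Where a gene's lower group had an array below the highest nonspecific control, a called difference is given as a bound, against the higher of the signal and that control per array, or without a size. The labels call the samples biological replicates, and p-values measure the spread between them. The number of arrays limits the precision.

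The members and lists were chosen with earlier results of these data known. Genes named with values were, per comparison and complex, up to 3 called members with the largest difference in each direction, or the member with the smallest p where none was called, plus the isoform sets, the Sdh genes and Cyc1, and up to 2 called genes per direction of each other list. Ndufs3, Ndufs8, Ndufv1, Atp5g3, Atp5b and Uqcrfs1 were added after their values were seen.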

Additional observations from a re-analysis of the deposited data

Results flagged for a closer look

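In each dose group of 5 arrays, the gap between the most extreme array and its nearest neighbour was set against the group's range (Dixon's critical value 0.71). Of 413 groups tested 13 passed, and chance flags about 1 in 20 groups. Among members, the lowest array of its group was 9.19 for Cox7a2l (120 ppm replicate 4, nearest 9.79), 10.02 for Ndufa11 (20 ppm replicate 3), 9.68 for Ndufa6 (120 ppm replicate 5), 10.68 for Ndufa7 (5 ppm replicate 5), 10.6 for Ndufc2 (20 ppm replicate 2), 10.32 for Ndufv2 (0 ppm replicate 5) and 9.59 for Uqcrb (5 ppm replicate 2). The highest array of its group was 8.71 for Sdha (120 ppm replicate 5, nearest 8.05) and 9.71 for Uqcrfs1 (5 ppm replicate 2). Of the means over groups of genes, 120 ppm replicate 3 was highest for complex I (10.42), complex IV (9.63) and the cardiac muscle markers (6.73, nearest 5.80), and 120 ppm replicate 5 was highest for complex II (9.14). The causes were not tested.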

How the results depend on the processing

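Counts at 1 and 5 ppm were 0 in each direction under every omission of 1 array. At 10 ppm, higher members numbered 2 without the 4 arrays rich in liver markers, and lower members 18 with array weights, 3 with arrays centred on their median and 5 without the liver-rich arrays. At 20 ppm, higher members numbered 1 with centring and 2 without the liver-rich arrays. Lower members at 20 ppm numbered 8 with dim genes left out, with trended and robust variance, with repeated quantile normalisation, with only the groups compared or with the 120 ppm group left out of the fit, 14 with array weights, 2 with centring, with the level trend removed or without the liver-rich arrays, and 3 with the poly-A covariate. At 40 ppm, higher members numbered 10 with weights, and 3 with centring or without the liver-rich arrays. Lower members there numbered 2 with centring or without the liver-rich arrays, and 1 with only the groups compared. At 120 ppm, the poly-A covariate gave 9 higher, centring 17 lower and level-trend removal 19 lower. For 10 against 5 ppm, higher members numbered 3 with weights, 2 with the poly-A covariate and 1 with the level trend removed. Lower members numbered 8 with dim genes out, trended variance or no 120 ppm group, 12 with weights, 1 with centring, 3 with the poly-A covariate or level-trend removal, 9 with the cardiac covariate and 2 without the arrays at 1 and 5 ppm whose titles share a number. For 40 against 10 ppm, higher members numbered 7 with dim genes out, 12 with weights, 0 with centring, 2 with the poly-A covariate or level-trend removal, and 8 without the 120 ppm group. For 120 against 40 ppm, the poly-A covariate gave 6 higher, centring 12 lower and level-trend removal 13 lower. Upward trends numbered 8 with dim genes out or the poly-A covariate, 15 with weights, 35 with the 120 ppm arrays included, 11 with level-trend removal and 10 with the cardiac covariate, and downward trends 4 on linear dose and 28 with the 120 ppm arrays. Counts of all genes moved between settings too. For 40 against 10 ppm, 1865 genes were higher with weights, 370 with centring and 726 in the main analysis. Upward genes numbered 6083 with the 120 ppm arrays included and 2250 in the main analysis. The member counts in this section therefore do not show whether a change is particular to the members. The causes were not tested.

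With 1 array left out, higher and lower members ranged from 2 to 4 and 5 to 12 at 10 ppm, 2 to 3 and 2 to 8 at 20 ppm, 4 to 7 and 2 to 4 at 40 ppm, and 38 to 41 and 28 to 29 at 120 ppm. They ranged from 0 to 1 and 3 to 8 for 10 against 5 ppm, 1 to 4 and 0 to 0 for 40 against 10 ppm, and 38 to 40 and 25 to 27 for 120 against 40 ppm. Trends ranged from 4 to 6 upward and 4 to 11 downward. Counts moved by over 1.5 times at 10 ppm without 0 ppm replicate 4 (2 higher), replicate 1 (5 lower) or replicate 2 (6 lower), or 10 ppm replicate 2 (6 lower). At 20 ppm they did so without 0 ppm replicate 1 (2 lower), replicate 2 (3 lower), replicate 4 (2 higher, 3 lower) or replicate 5 (2 higher, 8 lower), or 20 ppm replicate 2 or 4 (3 lower) or replicate 5 (2 higher). At 40 ppm 0 ppm replicate 4 and 40 ppm replicate 4 did so (2 lower each). For 10 against 5 ppm these were 5 ppm replicate 2 (1 higher, 3 lower) and 10 ppm replicates 1 and 2 (3 lower each) and 3 (8 lower), for 40 against 10 ppm 10 ppm replicate 2 (1 higher), and for the trend 0 ppm replicate 1 (4 downward). Over all genes, 4.67% were lower at 10 ppm without 0 ppm replicate 1, beside 6.62% with every array.

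Signs turned in 8 cases, none called: Cox5a at 120 ppm with centring (0.00967), Cox7a2l (0.12 with centring, 0.10 with level-trend removal), Uqcr10 (0.18 and 0.16) and Uqcrb (0.025 and 0.0291) at 120 against 40 ppm, and the Ndufa6 trend with the 120 ppm arrays included (0.00765). Of 101 calls of named members, 48 were kept under every alternative tried. Deviations of same-numbered arrays from their group means correlated with a median r of 0.11 (range -0.51 to 0.64), and 13 of 35 arrays correlated best with an array of their own number, so numbers were not used to pair arrays. With the replicate number as a block, higher and lower members were 4 and 11 at 10 ppm, 4 and 6 at 20 ppm, 7 and 3 at 40 ppm, 40 and 29 at 120 ppm, 0 and 7 for 10 against 5 ppm, 5 and 0 for 40 against 10 ppm, 40 and 27 for 120 against 40 ppm, and 5 and 10 for the trend, and 0 at 1 and 5 ppm. The alternatives that leave out the 120 ppm group or the liver-rich arrays, remove the level trend or add the cardiac covariate were chosen after seeing the data. Array signal limits Cox7b2, Cox8c, Cox4i2 and Cox7a1, which lay below the nonspecific control on most arrays.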

Other observations

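Of the 40 ppm lungs, replicate 4 was the lowest for Uqcrc2 (10.18), Ndufs1 (7.84), Sdha (9.55), Cox7a2l (9.74) and Atp5pb (9.58). Each was the called member that fell most at 120 ppm in its complex. It was also the lowest for Ndufs4 (7.43), which came after Ndufs1 in complex I. Across the 81 members the difference at 120 ppm had a Spearman's rho of -0.15 with the gene's span in bases and 0.10 with its mean level, and across all genes -0.32 and -0.20. These are correlations across genes, which are not independent replicates.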
